A study of Mus musculus with 20 samples.

Results

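The liver genes described here are 10 members of the mouse Cyp2c and Cyp2j cytochrome P450 subfamilies: Cyp2c29, Cyp2c37, Cyp2c50, Cyp2c54, Cyp2c67, Cyp2c68, Cyp2c70, Cyp2c23, Cyp2j5 and Cyp2j6. They are 10 of the 45306 genes in the expression table. Of these, 9 were found under their own symbol, and Cyp2c23 was found by its Ensembl identifier because the table lists it under its other name, Cyp2c44. All 10 passed the filter on low counts, which kept 15616 genes. The list was chosen by name from these subfamilies with the measured Sirt2-/- against Control fold changes of these libraries already known, so the members count as selected on that contrast. Values of that contrast, in which Cyp2j6 and Cyp2c54 had already stood out, are therefore given as a description.

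Liver RNA was sequenced from 20 mice in 4 groups of 5. Control mice were wild-type animals without cold exposure, CE mice were wild-type animals kept at 4 °C for 3 h a day over 3 weeks, Sirt2-/- mice carried a whole-body knockout, and Sirt2-/-/CE mice were knockouts given the same cold exposure. All were on a C57BL/6 background, were grouped at 5 weeks of age and were otherwise housed at 24 °C. The knockout was made by CRISPR with guides directed at exons 5 to 7 of Sirt2, an NAD-dependent deacetylase, in the whole animal, so it was not limited to hepatocytes. Per the methods, mice within an experiment did not differ in strain or sex, but which sex was used and the hour at which livers were taken are not given in the sources used here. The deposited counts cover the whole Sirt2 gene, exons outside the targeted ones included. Sirt2 was at 40.2 to 56.2 CPM (counts scaled to a common library total) in the 10 wild-type livers and at 16.9 to 27.5 CPM in the 10 knockout livers, with no overlap.

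Cyp2c and Cyp2j enzymes sit in the endoplasmic reticulum, where cytochrome P450 reductase (Por) passes them electrons. As a family they are known for adding an oxygen atom to the double bonds of arachidonic acid and related fatty acids. The products are epoxides that act on vessels and inflammation, and epoxide hydrolases turn them into diols. Not every member has that as its main task: Cyp2c70 is best known for making the muricholic acids of mouse bile. In mouse liver several Cyp2c genes differ between the sexes and are set by the growth hormone pattern, and some are induced through the nuclear receptors CAR and PXR.

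In the GENCODE annotation of GRCm38, each of the 10 genes is protein coding, and the longest coding transcript of each has 9 exons. Cyp2j6 (ENSMUSG00000052914, minus strand, chr4:96516138-96553661) and Cyp2j5 (ENSMUSG00000052520, minus strand, chr4:96628773-96664154) lie near each other on chromosome 4. Of the Cyp2c genes, 7 lie in 1 cluster on chromosome 19, which runs from Cyp2c29 (ENSMUSG00000003053, chr19:39269405-39330713) through Cyp2c67 (ENSMUSG00000062624, chr19:39608842-39649051), Cyp2c68 (ENSMUSG00000074882, chr19:39688834-39741054), Cyp2c37 (ENSMUSG00000042248, chr19:39992424-40012243), Cyp2c54 (ENSMUSG00000067225, chr19:40037940-40073827) and Cyp2c50 (ENSMUSG00000054827, chr19:40089688-40113950) to Cyp2c70 (ENSMUSG00000060613, chr19:40153353-40187333). Cyp2c23 (ENSMUSG00000025197) stands apart from that cluster at chr19:44005022-44029208. Cyp2c29, Cyp2c37 and Cyp2c50 are on the plus strand, and the other Cyp2c members are on the minus strand.

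Because the genes are close copies, short reads can be hard to place among them. Coding sequences were 97.2% identical between Cyp2c67 and Cyp2c68, 96.1% between Cyp2c37 and Cyp2c50 and 95.2% between Cyp2c50 and Cyp2c54, but only 79% between Cyp2j5 and Cyp2j6. Of all stretches of 100 bases along the transcript, 23.7% in Cyp2c67, 19.8% in Cyp2c68, 9.4% in Cyp2c50, 7.59% in Cyp2c54 and 4.7% in Cyp2c37 were also present, letter for letter, in a transcript of another gene. For Cyp2c67 and Cyp2c68 those other genes were each other, Cyp2c40 and Cyp2c69. None of the stretches of the longest coding transcripts of Cyp2c29, Cyp2c70, Cyp2c23, Cyp2j5 or Cyp2j6 occurred in another gene. Over all its transcripts, though, Cyp2c29 has 142 of 3061 exon bases in common with Cyp2c53-ps, a pseudogene annotated on the same strand. How reads that fit several places were counted is not given in the sources used here, so levels of the genes with shared bases carry that uncertainty. The longest run that Cyp2c50 and Cyp2c54 have in common is 198 bases of coding sequence, bases 387 to 584 in both, and it is shown because a read pair that lies wholly inside it cannot be assigned to either gene.
Shared run of Cyp2c50 and Cyp2c54: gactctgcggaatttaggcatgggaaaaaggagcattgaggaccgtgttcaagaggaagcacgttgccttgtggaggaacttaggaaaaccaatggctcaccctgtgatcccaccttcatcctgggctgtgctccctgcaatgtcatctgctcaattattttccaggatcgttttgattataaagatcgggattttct

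The stretch of 250 bases before the start site is shown for Cyp2j6, the member with the lowest level and the only one whose genotypes did not overlap on CPM either with or without cold. It is the RefSeq sequence of GRCm38.p6 at chr4:96553652-96553901 on the minus strand, and the capitals mark the E-box letters CACGTG, which the core clock proteins are known to bind.
Cyp2j6: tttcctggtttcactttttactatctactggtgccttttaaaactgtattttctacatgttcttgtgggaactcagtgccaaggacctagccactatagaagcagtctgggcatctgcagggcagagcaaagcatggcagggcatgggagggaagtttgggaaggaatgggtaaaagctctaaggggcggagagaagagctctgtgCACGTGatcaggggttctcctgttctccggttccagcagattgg

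The same stretch was compared between Cyp2c37 (chr19:39992174-39992423, plus strand) and Cyp2c50 (chr19:40089429-40089678, plus strand), a pair that is close in sequence but whose levels did not move together over mice. Capitals mark the 35 of 250 bases in each that had no identical partner in the alignment, which was 84.3% identical over its length.
Cyp2c37: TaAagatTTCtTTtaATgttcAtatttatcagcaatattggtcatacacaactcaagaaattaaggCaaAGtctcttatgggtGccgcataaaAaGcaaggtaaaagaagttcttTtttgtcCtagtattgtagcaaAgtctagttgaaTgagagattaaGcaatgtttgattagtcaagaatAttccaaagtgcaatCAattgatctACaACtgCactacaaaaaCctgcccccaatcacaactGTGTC
Cyp2c50: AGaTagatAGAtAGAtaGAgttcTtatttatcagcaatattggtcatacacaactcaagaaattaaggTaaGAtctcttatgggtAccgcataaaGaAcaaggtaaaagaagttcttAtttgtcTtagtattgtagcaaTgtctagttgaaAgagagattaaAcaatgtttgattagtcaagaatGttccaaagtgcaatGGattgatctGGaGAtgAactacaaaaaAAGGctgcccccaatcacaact

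RefSeq start sites were given for 8 of the 10 genes. Over these 8 stretches, both strands were searched for 6 sets of letters. The E-box CACGTG was in that of Cyp2j6 alone and in 6.02% of 32851 such stretches genome-wide. The letters CAAAGTCCA, a form of the HNF4 site, were in those of Cyp2c67, Cyp2c68 and Cyp2c70 and in 0.384% of all stretches. TATAAA was in those of Cyp2c29, Cyp2c67, Cyp2c70 and Cyp2j5 (12.4% of all), and GTTAAT, part of an HNF1 site, was in that of Cyp2c68 (6.43% of all). The D-box TTATGTAA (0.819% of all) and the DR4 repeat known for CAR (0.0152% of all) were in none of the 8. These motifs did not overlap each other, and a match in letters is a description only.

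Each library held between 35499796 and 53917339 counts assigned to genes, and a member had between 947 counts (Cyp2j6) and 120170 counts (Cyp2c29) in 1 liver, so counting error was small beside the spread between mice. CPM values below are scaled by TMM, which compares one gene between mice, and FPKM values, which are per length, compare genes. All 5 hepatocyte markers were abundant in every group, and none of the markers of kidney, pancreas and skeletal muscle passed the filter. In bulk liver, fewer cells of a type and less RNA per cell cannot be told apart. Sirt2-/- mice 14 and 15 stood apart from the rest by their clock genes: Dbp, a daily-cycling transcription factor, was at 0.325 and 0.359 CPM in them, against 37.9 to 66.8 CPM in the other 3 Sirt2-/- livers and 71.6 to 99.0 CPM in Control livers. By the mean centred log2 CPM of 10 genes known to be higher in males, Control mouse 3 (-1.93) and Sirt2-/-/CE mouse 20 (-2.98) stood apart from the other 18 livers (-0.65 to 1.05). The sex-linked genes Xist, Ddx3y, Uty, Kdm5d and Eif2s3y summed to 108 to 141 CPM in Control and 71.4 to 120 CPM in Sirt2-/-/CE livers. Whether the mice that stood apart differ in sex was not tested.

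Measured per length, Cyp2c29 was the highest member in Control liver at 781 ± 120.2 FPKM (SD, n = 5), and Cyp2c50 came next at 481 ± 69.7 FPKM. The Control values of these 2 genes overlapped neither each other nor those of the other members. Cyp2c70, Cyp2j5, Cyp2c54 and Cyp2c23 followed at means of 249, 207, 198 and 188 FPKM, and then Cyp2c67 at 154, Cyp2c37 at 151 and Cyp2c68 at 112 FPKM. From Cyp2c70 downwards each gene overlapped its neighbour in that order over the 5 Control livers, until the step to Cyp2j6. Cyp2j6 was at 17.4 ± 2.85 FPKM, below the lowest Control value of every other member. The table holds 19 further genes named Cyp2c or Cyp2j, of which 7 passed the filter. The highest of these in Control liver were Cyp2c40 at 13.4 ± 11.3 FPKM and Cyp2c38 at 8.35 ± 1.25 FPKM. Together the 10 members made up 0.489% ± 0.0175 of all counts in Control, 0.488% ± 0.0789 in CE, 0.490% ± 0.0782 in Sirt2-/- and 0.492% ± 0.0483 in Sirt2-/-/CE livers (SD, n = 5 each). These group means lay within 1 SD of each other.

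**Figure D1:**
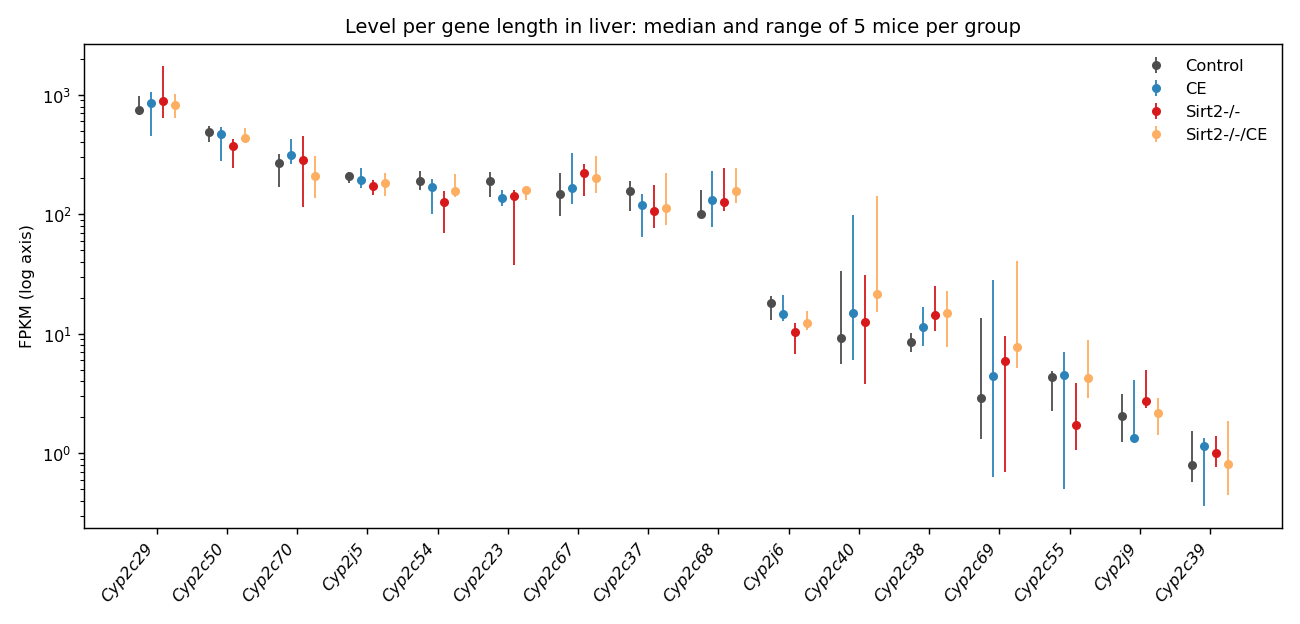
FPKM on a log axis for the 10 members and 6 of the other Cyp2c and Cyp2j genes, ordered by their Control mean. Points are medians and lines run from the lowest to the highest of 5 mice per group. Cyp2c29 is at the top in every group, and Cyp2j6 is the lowest member in every group, with its Control median of 18.3 FPKM inside the Control range of Cyp2c40 (5.61 to 33.3 FPKM), a gene outside the list.

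Cyp2j6 values were lower in the knockout with and without cold. In Control livers it was at 66.6, 72.5, 52.6, 67.1 and 79.9 CPM, and in Sirt2-/- livers at 37.4, 35.7, 45.2, 23.7 and 34.1 CPM. In CE livers it was at 55.9, 55.6, 55.4, 79.1 and 72.0 CPM, and in Sirt2-/-/CE livers at 44.2, 45.0, 54.8, 45.6 and 47.9 CPM. With and without cold, the genotypes did not overlap on CPM, beside 1.22% of all genes with cold and 3.61% without. In the cold groups the nearest values were 54.8 CPM (Sirt2-/-/CE mouse 18) and 55.4 CPM (CE mouse 8). Over all 20 livers, 9 of 10 knockout values were below the lowest wild-type value. The exception was Sirt2-/-/CE mouse 18, which lay above Control mouse 3. The fitted level in Sirt2-/- was 52.0% of Control (log2 fold change -0.94, SE 0.16), a description of the contrast on which the gene had been noticed. Without mice 14 and 15 the log2 fold change was -0.78.

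The comparison of Sirt2-/-/CE with CE rests on 10 mice outside the Sirt2-/- against Control contrast. The genes were chosen with earlier results of these data known, so the values of these mice are not shown to be free of that choice. The fit also shares its estimate of the spread with the other groups. In Sirt2-/-/CE against CE, Cyp2j6 was at 74.7% of its CE level (log2 fold change -0.42, SE 0.16, 95% interval -0.75 to -0.09, lower in 5 of 5 mice than the CE mean). The unadjusted p of the edgeR quasi-likelihood test was 0.0141, and the p adjusted over all 15616 genes was 0.638, so it did not pass the 0.05 threshold. With scaling by library size only, the log2 fold change was -0.33 and the unadjusted edgeR p was 0.0669. On the FPKM values the groups overlapped, since CE livers ran from 12.8 to 21.2 FPKM and Sirt2-/-/CE livers from 10.7 to 15.4 FPKM. On CPM, Cyp2j6 was the 1 member of 10 whose groups did not overlap in this comparison, beside 1.22% of all genes tested.

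Cyp2j5, an arachidonic acid epoxygenase of liver and kidney that neighbours Cyp2j6, had smaller differences. It was at 505, 570.0, 527, 557 and 465 CPM in Control and at 405, 409, 465, 334 and 369 CPM in Sirt2-/- livers, where the lowest Control value (464.5) and the highest Sirt2-/- value (464.9) were nearly equal. In the cold groups it was at 478, 500.0, 467, 587 and 523 CPM in CE and at 379, 414, 516, 495 and 373 CPM in Sirt2-/-/CE livers, which overlapped. The fitted log2 fold change was -0.41 (SE 0.12) in Sirt2-/- against Control and -0.30 without mice 14 and 15. In Sirt2-/-/CE against CE it was -0.23 (SE 0.12, 95% interval -0.49 to 0.03, edgeR adjusted p of 0.869), which did not pass.

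**Figure D2:**
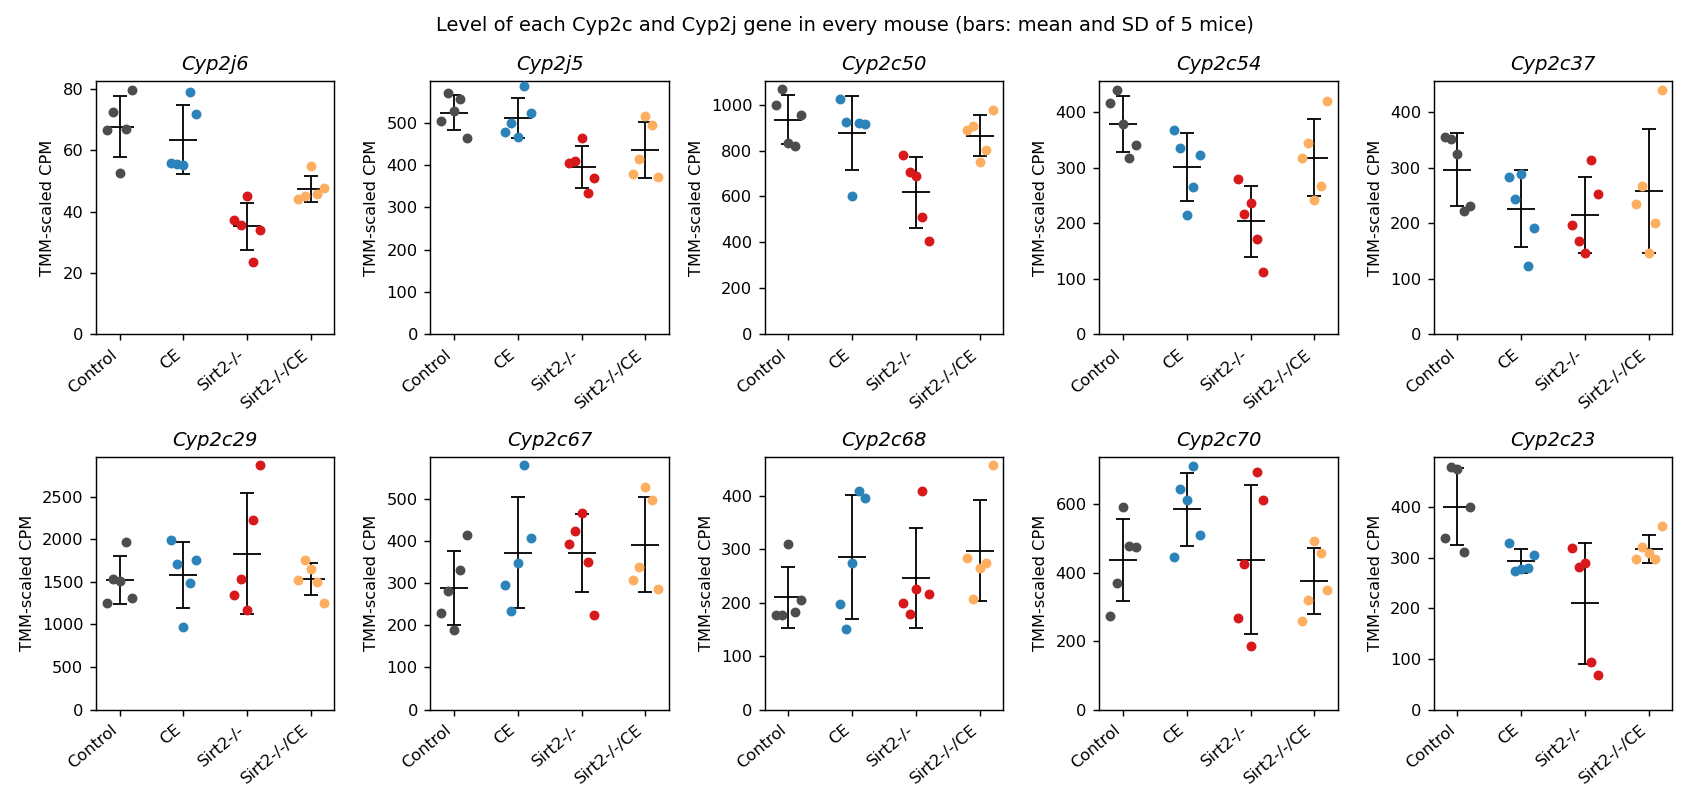
TMM-scaled CPM of each of the 10 members, with 1 point per mouse and, in black, the mean and SD of the 5 mice in a group. Cyp2j6 is the member whose knockout points lie below the wild-type points with and without cold, while 2 low points of Cyp2c23 belong to Sirt2-/- mice 14 and 15.

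Cyp2c50 and Cyp2c54, arachidonic and linoleic acid epoxygenases with neighbouring genes, had their lowest group means in Sirt2-/- livers. The test of whether their genotype difference changed with cold did not pass (interaction, edgeR adjusted p of 0.395 for Cyp2c54 and 0.529 for Cyp2c50). Cyp2c54 was at 416, 439.6, 379, 317 and 340.0 CPM in Control and at 279, 216, 236, 171 and 113 CPM in Sirt2-/- livers. It was at 368, 336, 215, 265 and 323 CPM in CE and at 316, 345, 242, 266 and 419.9 CPM in Sirt2-/-/CE livers. The Control and Sirt2-/- groups did not overlap, whereas the cold groups covered much the same range. The Cyp2c54 log2 fold change was -0.90 (SE 0.21) in Sirt2-/- against Control and 0.08 (SE 0.21, 95% interval -0.36 to 0.51) in Sirt2-/-/CE against CE.

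Cyp2c50 was at 999.6, 1069.9, 833, 818 and 955 CPM in Control and at 779, 706, 687, 510.2 and 404 CPM in Sirt2-/- livers. In the cold groups it was at 1023, 925, 599.8, 922 and 916 CPM in CE and at 888, 905, 752, 800.4 and 976 CPM in Sirt2-/-/CE livers. Here too the groups without cold did not overlap on CPM and the cold groups did. On FPKM the Cyp2c50 groups without cold overlapped, since the lowest Control liver was at 404.9 and the highest Sirt2-/- liver at 429 FPKM. The log2 fold change of Cyp2c50 was -0.60 (SE 0.17) in Sirt2-/- against Control and -0.02 (SE 0.17, 95% interval -0.38 to 0.34) in Sirt2-/-/CE against CE. In Sirt2-/- livers the 2 lowest values of both genes came from mice 14 and 15. Without these 2 mice, an alternative added after the data were seen, the log2 fold changes against Control were -0.63 for Cyp2c54 and -0.37 for Cyp2c50.

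Cyp2c23, an arachidonic acid epoxygenase of liver and kidney, had its 2 lowest values in Sirt2-/- mice 14 and 15. It was at 339, 478, 474, 311 and 399.7 CPM in Control and at 319, 281, 289, 93.9 and 68.1 CPM in Sirt2-/- livers. The CE livers lay between 274 and 329 CPM and the Sirt2-/-/CE livers between 297 and 361 CPM. The log2 fold change in Sirt2-/- against Control was -0.93 (SE 0.30), and -0.43 without the 2 mice. In Sirt2-/-/CE against CE it was 0.11 (SE 0.30, 95% interval -0.51 to 0.74).

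Cyp2c29, the most abundant member, was highest in the same 2 livers. It was at 1340.1, 1536, 1174, 2230.1 and 2873 CPM in Sirt2-/- livers, the last 2 values being those of mice 14 and 15, and at 1252 to 1969 CPM in Control livers. Its log2 fold change was 0.27 (SE 0.23) in Sirt2-/- against Control and -0.17 without the 2 mice. The CE livers ran from 973 to 1991 CPM and the Sirt2-/-/CE livers from 1249 to 1757 CPM, with a log2 fold change of -0.04 (SE 0.23, 95% interval -0.52 to 0.43).

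Cyp2c70, the muricholic acid enzyme, had the largest fitted difference of the members in Sirt2-/-/CE against CE. It was at 446, 645, 614, 713 and 511 CPM in CE and at 259, 321, 493, 459 and 350.1 CPM in Sirt2-/-/CE livers. All 5 Sirt2-/-/CE values were below the CE mean, but the groups overlapped. The log2 fold change was -0.64 (SE 0.29, 95% interval -1.25 to -0.03), with an unadjusted p of 0.0413 and an adjusted p of 0.778 in the edgeR test, so it did not pass. In Sirt2-/- against Control the log2 fold change was 0.00, and -0.57 without mice 14 and 15, which held the 2 highest of the Sirt2-/- values at 696 and 613 CPM.

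Cyp2c37, Cyp2c67 and Cyp2c68 had ranges that overlapped between all groups when every mouse was counted. Cyp2c37 ran from 221 to 354 CPM in Control, 123 to 289 CPM in CE, 145 to 314 CPM in Sirt2-/- and 146 to 440.0 CPM in Sirt2-/-/CE livers. Cyp2c67 ran from 189.9 to 413, 234 to 579.6, 225 to 467 and 285 to 528 CPM in the same order of groups. Cyp2c68 ran from 177 to 309.9, 151 to 409, 179.8 to 409.7 and 207 to 458 CPM. The log2 fold changes in Sirt2-/-/CE against CE were 0.19 (SE 0.28), 0.07 (SE 0.26) and 0.06 (SE 0.28). Against Control, the Sirt2-/- log2 fold changes were -0.46 for Cyp2c37, 0.36 for Cyp2c67 and 0.23 for Cyp2c68, and without mice 14 and 15 they were -0.80, 0.57 and -0.06. The other 3 Sirt2-/- livers had Cyp2c37 at 196, 168 and 145 CPM, below the lowest Control liver at 221 CPM. Sirt2-/-/CE mouse 20, which stood apart by its male-biased genes, held the highest Cyp2c37 and Cyp2c68 and the lowest Cyp2c67 of its group, and without it these 3 values were -0.10, 0.16 and -0.15. Control mouse 3 held the lowest Cyp2c67 and the highest Cyp2c68 of its group. Without it, the log2 fold change of Cyp2c68 in Sirt2-/- against Control was 0.40, beside 0.23 with it, and in CE against Control 0.62, beside 0.44. That of Cyp2c67 in Sirt2-/- against Control was 0.24 without it, beside 0.36. Without CE mouse 9, Cyp2c68 in CE against Control was at 0.27. The part of the sex-biased pattern in these values was not tested.

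As a list, 2 of the 10 genes passed the adjusted p threshold of 0.05 in Sirt2-/- against Control, Cyp2j6 and Cyp2c54, where 0.89% of all genes tested did. That count comes from the contrast in which the genes had been noticed. The 3 genes whose groups did not overlap on CPM were Cyp2j6, Cyp2c54 and Cyp2c50, beside 3.61% of all genes. The median log2 fold change was -0.43 over the 10 and 0.02 over all genes, and 5 of the 10 had an unadjusted p under 0.05, beside 14.9% of all genes. The call for Cyp2c54 and that for Cyp2j6 were both absent without mice 14 and 15, with a clock score as a covariate, with the other groups left out of the fit, or when either Control mouse 2 or Sirt2-/- mouse 15 alone was left out. The log2 fold change of Cyp2j6 in these 5 fits ran from -0.94 to -0.78, beside -0.94 as reported, and that of Cyp2c54 from -0.90 to -0.60, beside -0.90. The call for Cyp2c54, but not that for Cyp2j6, was also absent with library size only, with no filter, with upper-quartile scaling, and without Control mouse 1, 3 or 5 or Sirt2-/- mouse 12 or 14.

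In Sirt2-/-/CE against CE, 0 of 10 passed, and 0.0128% of all genes did. At an unadjusted p under 0.05 there were 2, Cyp2j6 and Cyp2c70, where 6.09% of all genes were past that point. DESeq2 and limma voom also called 0 members there. The median log2 fold change was 0.02 over the 10 and 0.02 over all genes. Among marker lists, 0 genes of the acute-phase, endothelial and Kupffer cell lists passed the adjusted threshold. Other lists moved in this comparison as well, with 0 genes past that threshold. Of 9 female-biased genes tested, 7 were higher and 2 lower, 3 of the higher ones with an unadjusted edgeR p under 0.05. Of 5 stellate cell markers, 4 were higher and 1 lower, 1 of the higher ones at that p. Of 5 cholangiocyte markers, 3 were higher and 2 lower, the lower ones at that p. Of the 12 acute-phase genes, 12 had a log2 fold change below 0 and 11 had an unadjusted edgeR p under 0.05, with summed levels of 8255 to 13864 CPM against 10302 to 33740 CPM in CE livers. The 5 sinusoidal and other endothelial markers had log2 fold changes above 0, each with an unadjusted edgeR p under 0.05, with summed levels of 106 to 198 CPM against 23.3 to 114 CPM. The 4 Kupffer cell markers tested had log2 fold changes above 0 too, 3 of them with an unadjusted edgeR p under 0.05, and summed levels of 209 to 352 CPM against 77.6 to 298 CPM. All 5 endothelial and 4 of 5 Kupffer cell markers passed the filter, and the table does not list the fifth under the symbol searched. In Sirt2-/- against Control, 9 of the 12 acute-phase genes had a log2 fold change below 0 and 5 had an unadjusted edgeR p under 0.05, and the 5 endothelial and 4 Kupffer cell markers were above 0, 0 of them at that p. For CE against Control, 12 acute-phase genes were above 0, 6 of them with an unadjusted edgeR p under 0.05. In that comparison the 5 endothelial markers were below 0, 1 of them at that p, and 2 Kupffer cell markers were above 0 and 2 below. The 4 leukocyte markers tested were below 0, and of 5 stellate cell markers 4 were below and 1 above. None of these passed the adjusted threshold. The part of these lists in the values of the 10 genes was not tested.

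**Figure D3:**
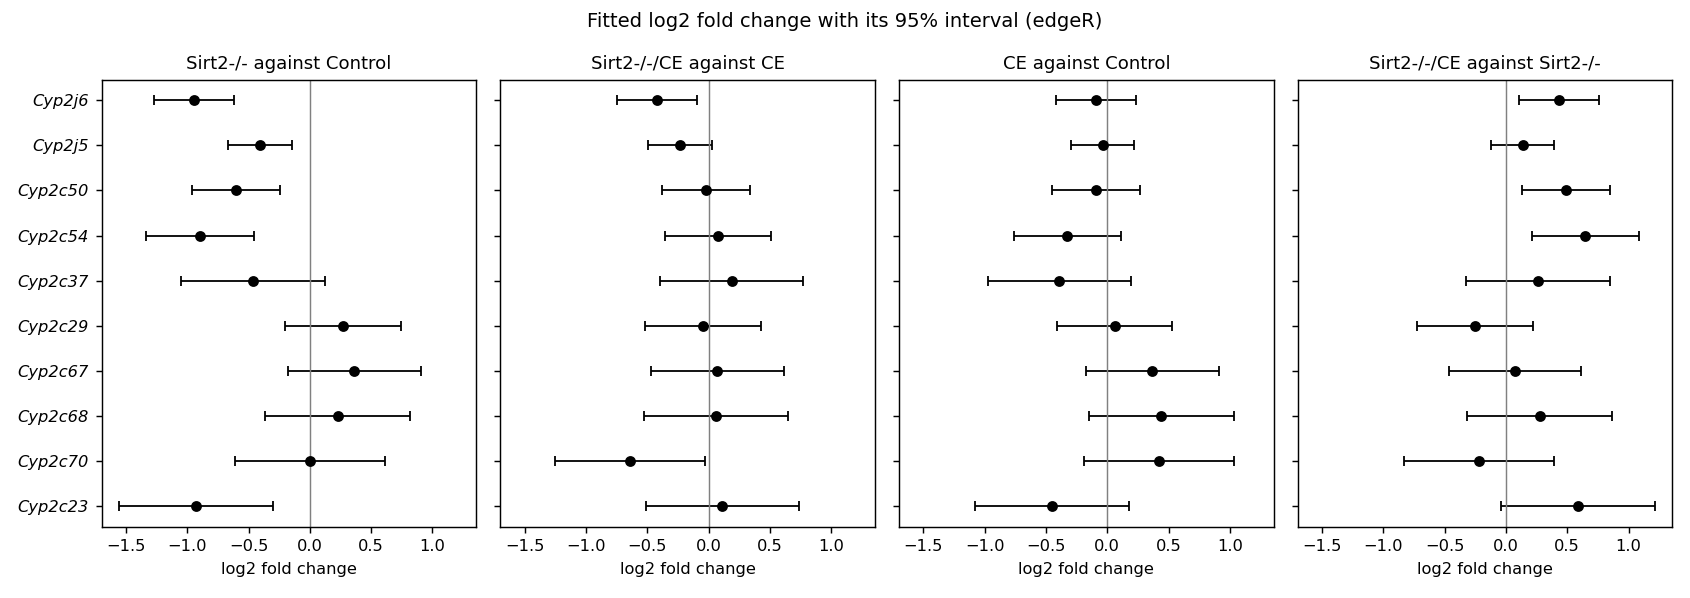
Fitted log2 fold change (x axis) of each member in 4 comparisons, with the 95% interval from the edgeR fit. The intervals of 5 members lie below 0 in Sirt2-/- against Control, and those of Cyp2j6 and Cyp2c70 in Sirt2-/-/CE against CE. These intervals are not adjusted for the number of genes.

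No member passed the threshold for cold exposure alone in wild-type liver. In CE against Control, which shares its Control mice with the contrast used to notice the genes, 0 of 10 passed (0.0064% of all genes did), and 0 had an unadjusted p under 0.05 in the edgeR test (10.7% of all genes did). The 2 groups overlapped in each member, so 0 stood apart, beside 3.04% of all genes. DESeq2 called 0 members as well. The log2 fold changes ran from -0.45 for Cyp2c23 (SE 0.30) to 0.44 for Cyp2c68 (SE 0.28). Those of Cyp2j5 and Cyp2j6 were -0.04 (SE 0.12, 95% interval -0.30 to 0.22) and -0.09 (SE 0.16, 95% interval -0.42 to 0.23).

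In knockout liver several members were higher with cold, without passing the threshold. In Sirt2-/-/CE against Sirt2-/-, which shares the Sirt2-/- mice with the noticed contrast, 0 of 10 passed, and so did 0% of all genes. DESeq2 also called 0 members. Cyp2c54 (log2 fold change 0.65, SE 0.21), Cyp2c50 (0.49, SE 0.17) and Cyp2j6 (0.43, SE 0.16) had an unadjusted p under 0.05, beside 7.25% of all genes. The 2 groups overlapped in each member, so 0 stood apart, beside 0.743% of all genes. Cyp2c54, Cyp2c50 and Cyp2j6 were above the Sirt2-/- mean in 5 of 5 Sirt2-/-/CE mice, with edgeR adjusted p-values from 0.559 to 0.563. Without mice 14 and 15 the 3 log2 fold changes were 0.37 for Cyp2c54, 0.24 for Cyp2c50 and 0.25 for Cyp2j6. In that fit 0 of 10 members had an unadjusted edgeR p under 0.05.

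The test of whether the genotype difference itself changed with cold called 0 of 10 members and 0% of all genes, and DESeq2 called 0 members. At an unadjusted edgeR p under 0.05 there were 4 members, where 8.34% of all genes were past that point. They were Cyp2c23 with a difference of log2 fold changes of 1.04 (SE 0.43), Cyp2c54 with 0.97 (SE 0.30), Cyp2c50 with 0.58 (SE 0.24) and Cyp2j6 with 0.52 (SE 0.22), and the lowest adjusted p was 0.395. Without Sirt2-/- mice 14 and 15 these differences were 0.52 for Cyp2c23, 0.68 for Cyp2c54, 0.32 for Cyp2c50 and 0.33 for Cyp2j6, and that of Cyp2c37 was 0.97, beside 0.65 with them. Leaving out Sirt2-/-/CE mouse 20 instead gave 0.37 for Cyp2c37. This test holds the noticed contrast as one of its terms.

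Levels of some members went with the clock genes of the same mouse, and the share of all genes that did so was not computed. A clock-gene score was computed per liver: the mean centred log2 CPM of 5 genes (Dbp, Per3, Tef, Nr1d2, Ciart) less the same mean of 3 genes that peak at the opposite time of day (Clock, Npas2, Arntl). Its group means were 2.73 in Control, -0.24 in CE, -1.54 in Sirt2-/- and -0.95 in Sirt2-/-/CE, and it ranged from -6.48 to 2.17 within Sirt2-/-. With group means removed, the Pearson correlation with the score over 20 mice was 0.78 for Cyp2c23 (Spearman's rho 0.68, and 0.77 without the 2 farthest mice) and 0.61 for Cyp2c54 (rho 0.57, and 0.45 without them). It was -0.71 for Cyp2c70 (rho -0.69, and -0.67 without them) and -0.65 for Cyp2c29 (rho -0.58, and -0.62 without them). For Cyp2j6 it was 0.21 (rho 0.05, and 0.48 without them), and for Cyp2j5 it was -0.01 (rho -0.10, and 0.08 without them). The remaining members had 0.48 (Cyp2c50), -0.32 (Cyp2c68), 0.03 (Cyp2c37) and -0.02 (Cyp2c67). Beside Sirt2-/- mice 14 and 15, CE mouse 9 and Sirt2-/-/CE mouse 19 had low scores, of -4.52 and -4.69, with Dbp at 4.32 and 2.46 CPM. The log2 fold change of Cyp2j6 in Sirt2-/-/CE against CE was -0.33 without mouse 9 and -0.41 without mouse 19, and that of Cyp2c70 was -0.56 and -0.72. The points are whole livers of unknown collection time, and these values are descriptions.

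**Figure D4:**
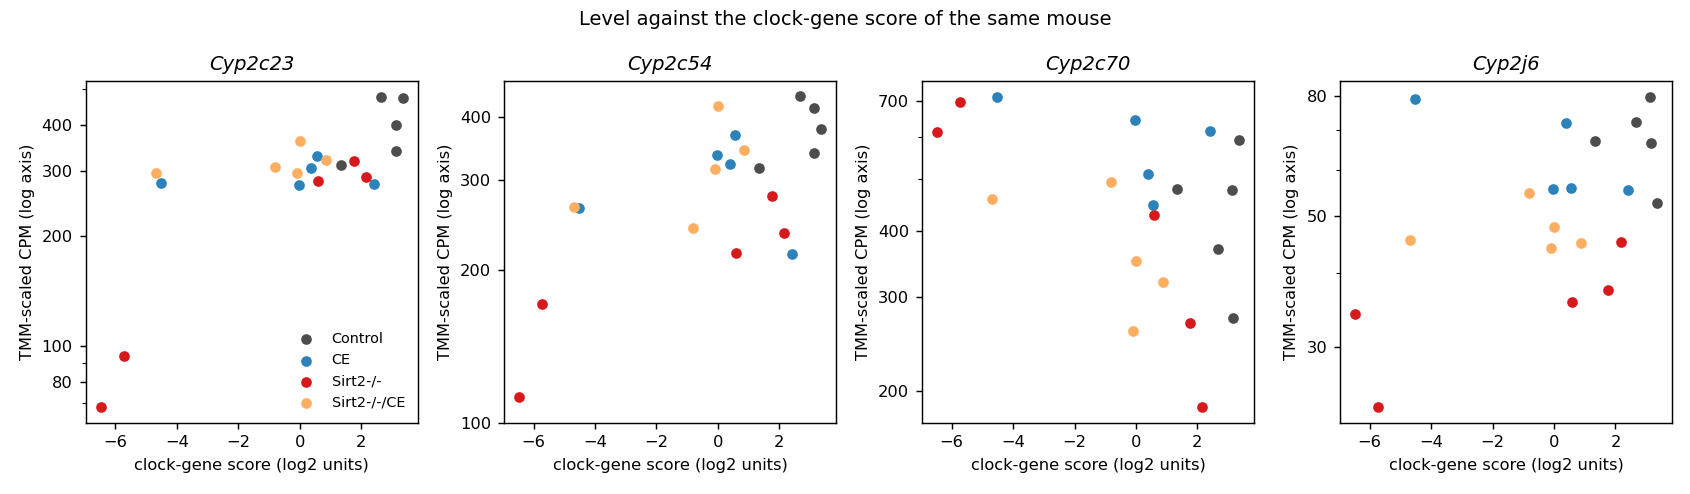
CPM on a log axis against the clock-gene score in log2 units for 4 members, with 1 point per mouse coloured by group. The 2 Sirt2-/- mice with the lowest scores have the lowest Cyp2c23 and Cyp2c54, with Cyp2c70 at 696 and 613 CPM, while the Cyp2j6 values of these 2 mice are 23.7 and 34.1 CPM.

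Some members varied together over mice. The share of all gene pairs with such correlations was not computed, so the counts describe these genes only. With group means removed, 7 of the 45 pairs had a Pearson correlation above 0.5 and 7 had one below -0.5 (n = 20 mice). The highest was that of Cyp2c50 with Cyp2c54 at 0.92 (rho 0.93, and 0.86 without the 2 farthest mice), 2 genes that share sequence, and Cyp2c23, which shares none with them at 100 bases, had 0.75 with each. Cyp2c37 varied against Cyp2c67 at -0.77 and against Cyp2j5 at -0.75, and had -0.12 with Cyp2c50 despite their near-identical sequence. Cyp2j5 and Cyp2j6 had 0.58. Outside the list, Cyp2c68 varied with Cyp2c40 at 0.87 and with Cyp2c69 at 0.80, genes with which it shares sequence and which are known to be higher in females. Cyp2c40 was high in Control mouse 3 at 67.6 CPM and in Sirt2-/-/CE mouse 20 at 276 CPM, against group medians of 16.98 and 38.6 CPM. In CE livers it was at 183 and 153 CPM in mice 9 and 10, against a group median of 32.1 CPM.

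**Figure D5:**
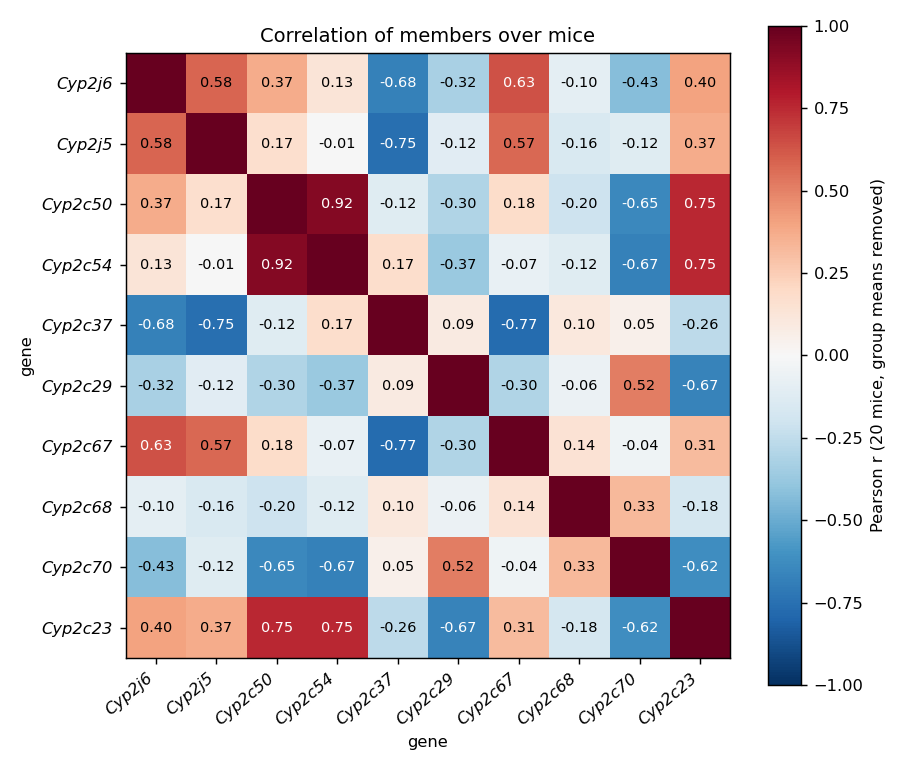
Pearson correlation of each pair of members over 20 mice after removing group means, from -1 (blue) to 1 (red). Cyp2c50, Cyp2c54 and Cyp2c23 form 1 red block, and Cyp2c37 is blue against Cyp2c67, Cyp2j5 and Cyp2j6.

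For each member, the gene outside the 2 subfamilies with the most similar pattern was found by the same correlation. Cyp2c50 and Cyp2c54 were both most like Ces1g, a carboxylesterase, at 0.93 and 0.87. Cyp2c23 was most like Rgn (regucalcin) at 0.94, Cyp2c67 most like Hao1, a hydroxyacid oxidase, at 0.89, and Cyp2j5 most like Acadsb, an acyl-CoA dehydrogenase, at 0.91. Cyp2j6 was most like Hsd17b12, a reductase of fatty acid elongation, at 0.87. The others were Pop1 for Cyp2c29 (0.86), Smarcd3 for Cyp2c37 (0.83), Tceal8 for Cyp2c68 (0.82) and Dpp9 for Cyp2c70 (0.82). Each is the highest over all tested genes outside the 2 subfamilies and is given as a description.

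No listed gene before or after the epoxygenase step passed the threshold in either genotype comparison. Of the 6 phospholipases tested that release the fatty acid substrate, 5 were higher and 1 lower in both Sirt2-/- against Control and Sirt2-/-/CE against CE, and 0 passed. The values furthest from 0 were those of Pla2g4b, at 1.32 (SE 0.90) and 0.42 (SE 0.89). Among the electron transfer partners, 0 of 6 passed. The largest values were -0.56 (SE 0.14) for Cyb5r3, cytochrome b5 reductase, in Sirt2-/- against Control and 0.63 (SE 0.54) for Alas1, the first enzyme of heme synthesis, in Sirt2-/-/CE against CE, while Por, named for its role, was at -0.30 (SE 0.40) and 0.11 (SE 0.40). Among the 3 epoxide hydrolase genes tested, Ephx1, the microsomal enzyme, had a log2 fold change of 0.98 (SE 0.24, edgeR adjusted p of 0.0517) in Sirt2-/- against Control and 0.38 (SE 0.23, adjusted p of 0.918) in Sirt2-/-/CE against CE. It was at 237 to 349.6 CPM in Control and 360.4 to 833 CPM in Sirt2-/- livers, without overlap. Ephx2, the soluble enzyme that hydrolyses most fatty acid epoxides, was at 0.05 (SE 0.19) and 0.09 (SE 0.19).

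Of 9 other arachidonate oxygenases, 0 passed in either comparison, with Cyp4f15 at -0.41 (SE 0.14) in Sirt2-/- against Control and Tbxas1, thromboxane synthase, at 0.79 (SE 0.39) in Sirt2-/-/CE against CE as the furthest from 0. Of 19 nuclear receptors and liver factors, 16 were lower and 3 higher in Sirt2-/- against Control and 0 passed. Nr0b2, the repressor SHP, was at 1.26 (SE 0.35, edgeR adjusted p of 0.0811) and Dbp at -1.53 (SE 0.96), whereas Hnf4a was at 0.00 (SE 0.14) and Nr1i3, which encodes CAR, at -0.02 (SE 0.33). Of 9 CAR and PXR targets tested, 6 were higher and 3 lower in both comparisons and 0 passed. The largest was Cyp2b9 at -2.27 in Sirt2-/- against Control and 3.09 (SE 1.43, edgeR adjusted p of 0.784) in Sirt2-/-/CE against CE. Cyp2b9 is also on the list of genes known to be higher in females. In Sirt2-/-/CE livers the summed level of that list had a median of 89.0 CPM and a highest value of 1470 CPM.

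Among the 7 further Cyp2c and Cyp2j genes tested, 0 passed in any comparison. Cyp2c38 had a log2 fold change of 0.79 (SE 0.29, edgeR adjusted p of 0.190) in Sirt2-/- against Control and 0.19 (SE 0.29) in Sirt2-/-/CE against CE. Cyp2c55 had -0.99 (SE 0.48) and 0.30 (SE 0.47), and Cyp2c40 had 0.09 (SE 0.77) and 0.08 (SE 0.77). Cyp2j9, Cyp2c39, Cyp2c69 and Cyp2c53-ps lay between -0.23 and 0.43 in these comparisons. With cold, Cyp2c40 had 1.61 (SE 0.79) in CE against Control and 1.60 (SE 0.79) in Sirt2-/-/CE against Sirt2-/-, and Cyp2c69 had 1.27 (SE 0.86) and 1.43 (SE 0.87). Few livers carried these values. Sirt2-/-/CE mouse 20 had Cyp2c40 at 276 and Cyp2c69 at 77.3 CPM, against group medians of 38.6 and 13.4 CPM. In CE the highest were 183 CPM (Cyp2c40, mouse 9) and 51.8 CPM (Cyp2c69, mouse 10), against medians of 32.1 and 9.36 CPM. Cyp2c55 had 0.03 (SE 0.47) and 1.32 (SE 0.48, edgeR adjusted p of 0.563), the latter with 5 of 5 mice above the Sirt2-/- mean. Of those that did not pass the filter, the highest group mean was 0.115 CPM, that of Cyp2j8 in Sirt2-/-.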

How the data were processed

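Poly(A) RNA from 20 mouse livers was sequenced on an Illumina instrument, and the authors deposited 1 table with raw read counts and FPKM values per gene. The labels name the mm10 build of the mouse genome, while the aligner, the counting tool, its strand setting and its handling of reads with several matches are not given in the sources used here. From the deposited counts, 45306 genes were read after 9 lines without a gene were left out, and 0 columns were left over. Mice were grouped by their sample titles, which carry 1 number per mouse. Where nothing says otherwise, each library is taken as 1 mouse.

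Counts were filtered with filterByExpr (minimum count 10, minimum total 15), scaled by TMM and fitted with edgeR 4.0.16 in R 4.3.3 (glmQLFit, glmQLFTest, two-sided) over all 20 libraries with group as the only term. P-values were adjusted by the Benjamini-Hochberg method over 15616 genes and called at 0.05. Correlations used log2 CPM with a prior count of 2 and group means removed. Alternatives were other scalings and filters, DESeq2 1.42.0, limma 3.58.1 on voom values and on log2 of FPKM plus 1 or plus 0.1, a clock-gene score as covariate, only the groups compared, and each mouse left out. The scripts were tested on simulated data. Sequence comparisons used GENCODE and RefSeq tables with Biopython 1.88.

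The 10 genes and the other lists were chosen with earlier results of these data known. All 10 are named, as are the further Cyp2c and Cyp2j genes that passed the filter, the values furthest from 0 in each pathway list, and for each member the most similar gene. Por, Ephx2, Hnf4a and Nr1i3 were added for their roles.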

Additional observations from a re-analysis of the deposited data

Results flagged for a closer look

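Of the 40 groups of 5 mice checked (10 genes in 4 groups), 3 held a mouse far from the others, where chance flags about 1 in 20. Cyp2c50 was at 599.8 CPM in CE mouse 8, and the next lowest CE mouse was at 916 CPM. Cyp2c68 was at 309.9 CPM in Control mouse 3, and the next highest Control mouse was at 205 CPM. Cyp2c68 was also at 409.7 CPM in Sirt2-/- mouse 14, and the next highest Sirt2-/- mouse was at 226 CPM.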

How the results depend on the processing

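The count of members past the threshold moved in Sirt2-/- against Control alone. It went from 2 to 0 with the clock score as a covariate, 0 with only the groups compared and 0 with Sirt2-/- mice 14 and 15 left out together (chosen after seeing the data). It was 1 with library size only, with no filter and with upper-quartile scaling, 4 with DESeq2 and 4 with limma voom. Leaving out each mouse in turn gave 0 (without Control mouse 2 or Sirt2-/- mouse 15) to 2 members. In the other 4 comparisons 0 members passed under the alternatives run. The number of genes called over the whole table moved by more than 1.5 times as follows. In Sirt2-/- against Control it was 139 as reported, 0 with the clock score or without mice 14 and 15, 29 with only the groups compared, 35 with no filter, 209 with at least 10 counts in every library, 316 on log2(FPKM + 0.1), 321 on log2(FPKM + 1), 419 with library size only, 607 with DESeq2 and 906 with limma voom. In Sirt2-/-/CE against CE it was 2 as reported, 0 with only the groups compared, 1 with library size only, 4 on log2(FPKM + 1), 5 on log2(FPKM + 0.1) and 31 with DESeq2. In CE against Control it was 1 as reported, 0 with only the groups compared, 2 with the clock score, 188 with DESeq2 and 540 with limma voom. In Sirt2-/-/CE against Sirt2-/- it was 0 as reported, 7 with DESeq2. In the interaction it was 0 as reported, 41 with DESeq2. The cause was not tested.

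Cyp2j5 and Cyp2j6 kept their direction under the alternatives and omissions of 1 mouse that were run. The size of the Cyp2j5 log2 fold change moved by over 1.5 times over the alternatives, from -0.25 to -0.12 in Sirt2-/-/CE against CE, -0.41 to -0.26 in Sirt2-/- against Control, 0.046 to 0.25 in the interaction, 0.017 to 0.20 in Sirt2-/-/CE against Sirt2-/- and -0.058 to -0.026 in CE against Control. The size for Cyp2j6 also moved by over 1.5 times, from -0.12 to -0.039 in CE against Control, 0.33 to 0.55 in the interaction and 0.25 to 0.43 in Sirt2-/-/CE against Sirt2-/-. Directions of other members turned, at log2 fold changes that did not pass the threshold. With the clock score they were 0.031 for Cyp2c23, -0.19 for Cyp2c29 and 0.065 for Cyp2c50 in CE against Control, and 0.077 for Cyp2c29 and 0.10 for Cyp2c68 in the interaction, and -0.17 for Cyp2c29, -0.061 for Cyp2c68 and -0.66 for Cyp2c70 in Sirt2-/- against Control. Without mice 14 and 15 they were 0.10 for Cyp2c29 and 0.10 for Cyp2c68 in the interaction, and -0.17 for Cyp2c29, -0.057 for Cyp2c68 and -0.57 for Cyp2c70 in Sirt2-/- against Control, and 0.17 for Cyp2c29, -0.14 for Cyp2c67 and 0.35 for Cyp2c70 in Sirt2-/-/CE against Sirt2-/-. With limma voom they were 0.017 for Cyp2c29 and 0.24 for Cyp2c70 in Sirt2-/-/CE against Sirt2-/-, and -0.083 for Cyp2c37 and -0.13 for Cyp2c54 in Sirt2-/-/CE against CE, and 0.034 for Cyp2c68 in the interaction, and -0.069 for Cyp2c70 in Sirt2-/- against Control. With library size only they were 0.045 for Cyp2c29 and 0.058 for Cyp2c50 in Sirt2-/-/CE against CE. With upper-quartile scaling they were 0.013 for Cyp2c50 in Sirt2-/-/CE against CE. On log2(FPKM + 1) they were 0.066 for Cyp2c29 and 0.072 for Cyp2c50 in Sirt2-/-/CE against CE, and -0.014 for Cyp2c67 in Sirt2-/-/CE against Sirt2-/-. On log2(FPKM + 0.1) they were 0.066 for Cyp2c29 and 0.072 for Cyp2c50 in Sirt2-/-/CE against CE, and -0.014 for Cyp2c67 in Sirt2-/-/CE against Sirt2-/-. Cyp2c70 in Sirt2-/- against Control, at 0.00033 in the reported fit, also turned to -0.0040 with DESeq2, -0.0040 with DESeq2 size factors in edgeR, -0.00059 with at least 10 counts in every library, -0.0030 with no filter and -0.00027 with only the groups compared. Leaving out 1 mouse at a time turned these directions too, over ranges of -0.035 to 0.19 for Cyp2c29 and -0.15 to 0.014 for Cyp2c50 in CE against Control, and -0.18 to 0.050 for Cyp2c29, -0.10 to 0.34 for Cyp2c37, -0.13 to 0.038 for Cyp2c50, -0.046 to 0.16 for Cyp2c54, -0.060 to 0.29 for Cyp2c67 and -0.15 to 0.23 for Cyp2c68 in Sirt2-/-/CE against CE, and -0.020 to 0.44 for Cyp2c37, -0.070 to 0.17 for Cyp2c67 and -0.41 to 0.011 for Cyp2c70 in Sirt2-/-/CE against Sirt2-/-, and -0.036 to 0.40 for Cyp2c68 and -0.23 to 0.19 for Cyp2c70 in Sirt2-/- against Control, and -0.37 to 0.10 for Cyp2c68 in the interaction.

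No paired analysis was possible because each mouse has a number of its own and no number is shared between groups. The limits are 5 mice a group, no given sex or collection time, and close gene copies.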
